A study of Mus musculus with 9 samples.

Results

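The genes of the Wnt pathway were followed across 3 compartments of mouse tail epidermis: the ligands, the Frizzled receptors and co-receptors, the secreted inhibitors and the effectors inside the cell. They comprised every gene whose symbol starts with Wnt or Fzd and a digit, and 30 named genes of the same pathway. Through the annotation of the array, 57 of the 14508 genes measured belonged to the group: 19 Wnt genes, 9 Fzd genes and 29 of the 30 named genes. Fzd9 and Znrf3 had no value in the annotation used. A gene was measured by 2 to 41 probe sets, with a median of 7, and its value was the median log2 signal of those probe sets.

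Wnt proteins are lipid-modified secreted signals that bind a Frizzled receptor together with the co-receptor Lrp5 or Lrp6. The bound receptor stops the complex of Axin and Apc from marking beta-catenin for destruction, and beta-catenin then acts in the nucleus with the transcription factors Lef1, Tcf7, Tcf7l1 and Tcf7l2. Cells answer by switching on inhibitors of the same pathway, and other Wnt proteins signal without beta-catenin to orient cells. In mouse skin the pathway is needed to form hair follicles and to make the hair shaft, and it is also active in the interfollicular epidermis.

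Adult female mice, wild type and of C57BL6/CBA strain background, gave tail epidermis from which hair follicle (HF), sebaceous gland (SG) and interfollicular epidermis (IFE) were microdissected. The mice shared sex and age. Each sample pooled dissected pieces of a single compartment, and 3 biological replicates of each gave 9 arrays. The amplified RNA was read on exon arrays. The exact age of the mice and the stage of the hair cycle are not given in the labels.

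The median deposited intensity of an array lay between 175.91 and 234.18. For 9 of 9 arrays the array name in the description disagrees with the compartment in the title, and the groups follow the titles. Marker genes were set against the titles. The mean log2 signal of 12 sebocyte genes was 8.01 to 8.44 on the HF arrays and 9.74 to 10.25 on the SG arrays, against 6.74 to 6.95 on the IFE arrays. The mean of 7 suprabasal IFE genes was 10.29 to 10.74 on the HF arrays and 10.33 to 10.36 on the SG arrays, against 11.57 to 11.91 on the IFE arrays. The mean of 11 markers of the hair shaft and its inner sheath was 12.14, 11.51 and 12.17 on the HF arrays and 7.51, 7.75 and 10.17 on the SG arrays, against 6.72 to 6.78 on the IFE arrays. By that list SG replicate 3 stood apart from the other SG arrays and nearer to HF, and each Wnt gene called in a comparison with SG is also given without it. The mean of 12 genes of resting follicle epithelium was 8.87 to 8.97 on the HF arrays and 8.71 to 8.86 on the SG arrays, against 7.51 to 7.65 on the IFE arrays, so that all 3 SG arrays lay close to HF. Of those 12, 8 were called higher in HF than in IFE and 6 in SG than in IFE. Between HF and SG 1 was called higher in HF, and the median HF minus SG was 0.17. The list holds Lgr5 and Sox9, which are also known targets of beta-catenin. HF replicate 2 had the lowest hair shaft mean and the highest sebocyte mean of the HF arrays. The part of these mixed signals in the Wnt results was not tested. In such bulk samples, fewer cells of a type and less RNA per cell cannot be told apart.

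**Figure D1:**
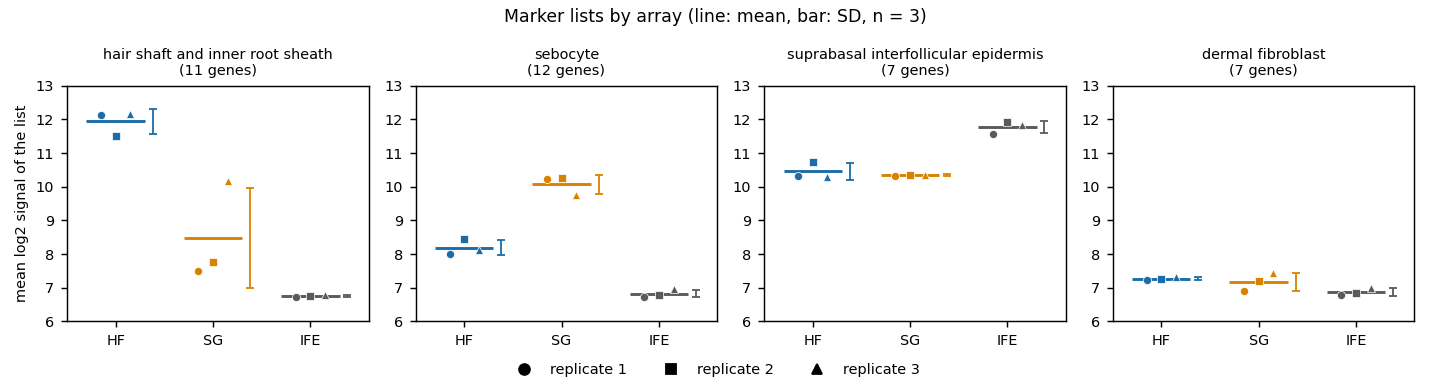
Mean log2 signal (vertical axis) of 4 marker lists on each of the 9 arrays, with HF, SG and IFE from left to right, a line at the mean and a bar of 1 SD to its right (n = 3). The hair shaft list stands at 10.17 on SG replicate 3, between the other SG arrays and the HF arrays, and the fibroblast list lies between 6.78 and 7.44 on all arrays.

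A gene counted as changed at a limma adjusted p (Benjamini-Hochberg over all 14508 genes) under 0.05 with a log2 difference of 1 or more in either direction. Between HF and IFE, 9 of the 57 genes changed (15.8%), against 6.32% of all genes measured. Of these 9, 7 were higher in HF, where the share over all genes was 2.96%, and 2 were lower, where it was 3.36%. The 7 were Fzd3, Lef1, Nkd2, Nkd1, Fzd4, Tcf7 and Tcf7l1, and the 2 were Dkkl1 and Lrp4. Between HF and SG, 5 genes changed (8.77%, against 5.11% of all genes), and all 5 were higher in HF (3.3% of all genes): Nkd2, Wnt5a, Nkd1, Ctnnb1 and Tcf7. None was lower in HF, where the share over all genes was 1.81%. Between SG and IFE, 9 genes changed (15.8%, against 9.49% of all genes). Of those, 4 were higher in SG (2.54% of all genes), namely Fzd3, Lef1, Fzd4 and Sfrp2, and 5 were lower (6.95% of all genes), namely Dkkl1, Lrp4, Fzd10, Wnt4 and Kremen1.

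Across the 3 comparisons 15 of the 57 genes changed at least once, against 13.9% of all genes, and 42 did not. The median difference of the 57 genes was 0.14 for HF minus IFE, beside -0.07 for all genes. It was 0.12 for HF minus SG, beside 0.02 for all genes, and -0.06 for SG minus IFE, equal to the -0.06 of all genes. The HF and IFE arrays did not overlap for 25 of the 57 genes (32.8% of all genes), with HF above for 16 (13.5%) and below for 9 (19.3%). The HF and SG arrays did not overlap for 17 (29.3%), with HF above for 14 (17.2%) and below for 3 (12.1%). The SG and IFE arrays did not overlap for 25 (34.9%), with SG above for 10 (13.2%) and below for 15 (21.7%). Under quantile normalization 4.2% of all genes were higher and 3.28% lower in SG than in IFE, and under median centring 4.45% and 3.94%, in place of 2.54% and 6.95%. For HF minus SG the shares were 2.77% and 2.78% under quantile normalization and 2.61% and 2.62% under median centring, in place of 3.3% and 1.81%, and for HF minus IFE they were 3.42% and 2.45%, then 3.6% and 2.73%, in place of 2.96% and 3.36%. For HF against SG the number without overlap lay near the share of all genes and says nothing particular about the Wnt genes. P-values measure the spread between pooled dissections labelled as biological replicates, and 3 arrays per compartment limit the precision: the median SE of a difference was 0.204 for these genes.

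**Figure D2:**
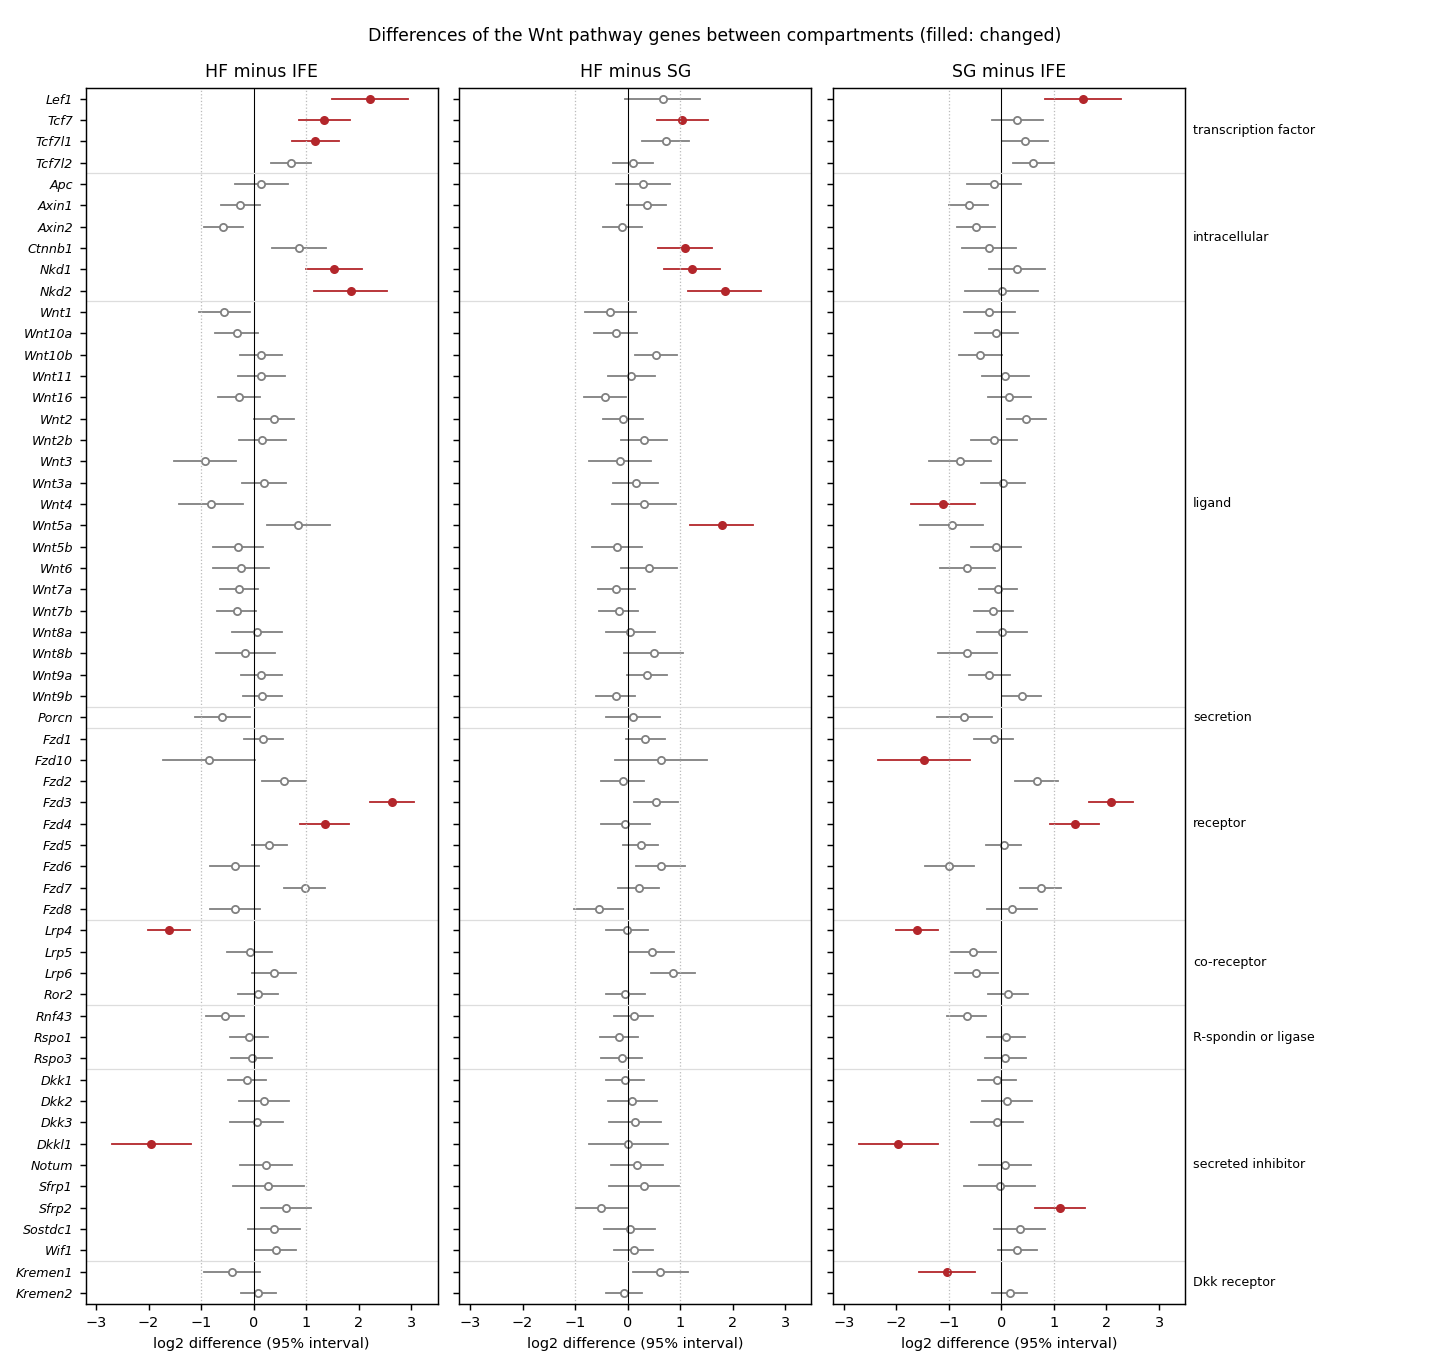
Log2 difference (horizontal axis) of each of the 57 genes with its 95% interval from the limma fit, for HF minus IFE, HF minus SG and SG minus IFE, with genes grouped by role from top to bottom. Filled points are the 9, 5 and 9 genes that changed, dotted lines mark a log2 difference of 1 in either direction, and the ligand rows hold 1 filled point in HF minus SG and 1 in SG minus IFE.

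Of the 4 transcription factors, 3 were higher in HF than in IFE, beside 2.96% of all genes, and the fourth, Tcf7l2, stood above IFE without reaching the fold threshold. Lef1, a partner of beta-catenin that marks hair shaft precursor cells, had a log2 signal of 8.45, 7.89 and 8.40 on the HF arrays and 6.77, 7.63 and 8.33 on the SG arrays, against 6.21, 6.17 and 5.69 on the IFE arrays. Every HF and SG array lay above every IFE array, and SG spanned a wide range, with replicate 3 inside the HF range. Lef1 was 4.66-fold higher in HF than in IFE (2.22 ± 0.33 on the log2 scale, SE of the limma fit, 3 arrays each, adjusted p = 0.00101). It was also higher in SG than in IFE by 1.55 ± 0.33 (adjusted p = 0.0059), and by 1.18 without SG replicate 3 (adjusted p = 0.0115). HF minus SG was 0.67 with an interval of -0.05 to 1.39, so the order of HF and SG was not resolved.

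The probe sets of Lef1 moved together in direction but not in size. All 14 were higher in HF than in IFE, by 0.18 to 5.35 on the log2 scale, and for 13 of them the groups did not overlap. Here and below, overlap was not counted over all probe sets, so no share stands beside it. Tested over all 154736 probe sets, 10 of the 14 were called higher in HF than in IFE (6.76% of all probe sets changed, 2.96% upward and 3.81% downward), 1 was called higher in HF than in SG (5.78% changed, 4.24% upward and 1.53% downward) and 4 were called higher in SG than in IFE (15.4% changed, 3% upward and 12.4% downward). The probe set with the largest difference had a log2 signal of 9.49, 9.09 and 9.78 on the HF arrays and 7.64, 8.22 and 9.63 on the SG arrays, against 3.87, 3.91 and 4.53 on the IFE arrays. There SG replicate 3 again lay within the HF range, while the other SG arrays lay between HF and IFE. The single value of the gene thus covers probe sets with a large difference and probe sets with almost none.

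RefSeq on GRCm38.p6 gives Lef1 4 starts, 46.0 kb apart from first to last, on the plus strand of chromosome 3. The windows around the first and the last start are shown because Lef1 differed most among the transcription factors and because its own family's binding motif can be looked for in them. Each window holds 250 bases before to 50 bases after the start. Capitals mark a match to the motif of the Lef1 and Tcf family, searched on both strands as CTTTGAA, as CTTTGAT, as CTTTGTA and as CTTTGTT, which differ only in their last letters.
Lef1, first start, chr3:131110047-131110346, plus strand: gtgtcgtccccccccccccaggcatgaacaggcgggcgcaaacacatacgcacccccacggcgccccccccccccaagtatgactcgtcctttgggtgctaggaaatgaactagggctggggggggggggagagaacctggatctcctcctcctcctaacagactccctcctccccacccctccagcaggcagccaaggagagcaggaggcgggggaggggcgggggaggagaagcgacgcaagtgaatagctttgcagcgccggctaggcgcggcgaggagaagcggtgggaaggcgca
Lef1, last start, chr3:131156044-131156343, plus strand: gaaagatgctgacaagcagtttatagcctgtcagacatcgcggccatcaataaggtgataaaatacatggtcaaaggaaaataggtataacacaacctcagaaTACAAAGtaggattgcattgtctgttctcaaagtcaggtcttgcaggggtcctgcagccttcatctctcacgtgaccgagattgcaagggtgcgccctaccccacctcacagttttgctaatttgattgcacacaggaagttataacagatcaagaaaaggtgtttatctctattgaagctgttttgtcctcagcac
The window of the last start holds a single match, to CTTTGTA on the minus strand at position -147 from the start, and that of the first start holds none. At least 1 match lay in a promoter window of 18.9% of all genes in the RefSeq table (5121 of 27025) and of 18.9% of the Wnt pathway genes found in it (7 of 37). Those 7 were Dkk1, Fzd7, Lef1, Tcf7l2, Wnt11, Wnt3 and Wnt5b. Among the 11 changed genes with a window, only Lef1 had a match (9.09%). Fzd3, Kremen1, Lrp4 and Wnt5a, the other changed genes, were not found in the table. A match describes these letters and is no evidence of binding.

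Tcf7, which encodes the factor TCF1, had a log2 signal of 9.34, 8.90 and 9.16 on the HF arrays and 7.78, 7.89 and 8.59 on the SG arrays, against 7.82, 7.70 and 7.85 on the IFE arrays. The HF arrays lay above all others, and SG replicate 3 was the highest of the remaining 6. Tcf7 was 2.54-fold higher in HF than in IFE (1.34 ± 0.22, adjusted p = 0.00197, limma) and 2.06-fold higher in HF than in SG (1.04 ± 0.22, adjusted p = 0.0112, limma). The second call ended without HF replicate 1 (adjusted p = 0.0563), HF replicate 3 (adjusted p = 0.0534), SG replicate 1 (difference 0.89) or SG replicate 2 (adjusted p = 0.0532), and the difference was 1.30 without SG replicate 3. Of its 12 probe sets, 11 were higher in HF than in IFE and 11 were higher in HF than in SG.

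Tcf7l1, a repressor of the family known in mouse skin from the stem cell region of the follicle, had a log2 signal of 8.07, 8.46 and 8.42 on the HF arrays and 7.21, 7.94 and 7.62 on the SG arrays, against 7.20, 7.07 and 7.15 on the IFE arrays. The 3 compartments did not overlap, with HF highest and IFE lowest, though SG replicate 1 was barely above IFE. Tcf7l1 was 2.26-fold higher in HF than in IFE (1.17 ± 0.20, adjusted p = 0.0028, limma). HF minus SG was 0.73 (adjusted p = 0.0448) and SG minus IFE was 0.45 (adjusted p = 0.141), both under the fold threshold. Its probe sets stand under the older symbol Tcf3 in the annotation, which lists the older symbol of today's Tcf3, Tcfe2a, beside it. Tcf7l2, the remaining member of the family, was at 0.71 for HF minus IFE (adjusted p = 0.0217) and 0.61 for SG minus IFE (adjusted p = 0.0292), also under the fold threshold.

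Among the genes inside the cell, both Naked cuticle genes set HF apart from the other compartments. Nkd1 and Nkd2 bind Dishevelled and damp the Wnt signal, and Nkd1 is a known feedback gene of the pathway. Nkd1 had a log2 signal of 8.61, 8.68 and 8.70 on the HF arrays and 6.93, 7.35 and 8.05 on the SG arrays, against 7.17, 7.00 and 7.25 on the IFE arrays. HF lay above all other arrays in a narrow band, and SG replicate 3 was the nearest to it. Nkd1 was 2.87-fold higher in HF than in IFE (1.52 ± 0.24, adjusted p = 0.00157, limma) and 2.34-fold higher in HF than in SG (1.22 ± 0.24, adjusted p = 0.0079, limma). Without SG replicate 1 the difference from SG was 0.97, under the fold threshold, and without SG replicate 3 it was 1.53.

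Of the 10 probe sets of Nkd1, 9 were higher in HF than in IFE with no overlap of the groups, and 10 were higher in HF than in SG. The exception lay at -0.73 for HF minus IFE. By the test over all probe sets, 5 were called higher in HF than in IFE (2.96% of all probe sets) and 4 were called higher in HF than in SG (4.24%). For SG minus IFE 1 was called lower (12.4%) and none higher (3%). That 1 of 10 is near the share of all probe sets and says nothing particular about Nkd1. The probe set with the largest difference between HF and IFE was called higher in HF in both comparisons. Its log2 signal was 9.89, 9.43 and 9.88 on the HF arrays and 4.62, 5.24 and 8.89 on the SG arrays, against 6.84, 5.91 and 6.91 on the IFE arrays. The probe set with the second largest difference was not called (limma adjusted p = 0.0565 for HF minus IFE and 0.0533 for HF minus SG). In it the log2 signal was 8.57, 8.50 and 8.69 on the HF arrays and 3.95, 3.95 and 8.15 on the SG arrays, against 5.60, 5.40 and 5.48 on the IFE arrays. SG replicates 1 and 2 were the lowest of the 9 arrays there, and SG replicate 3 stood close to HF.

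**Figure D3:**
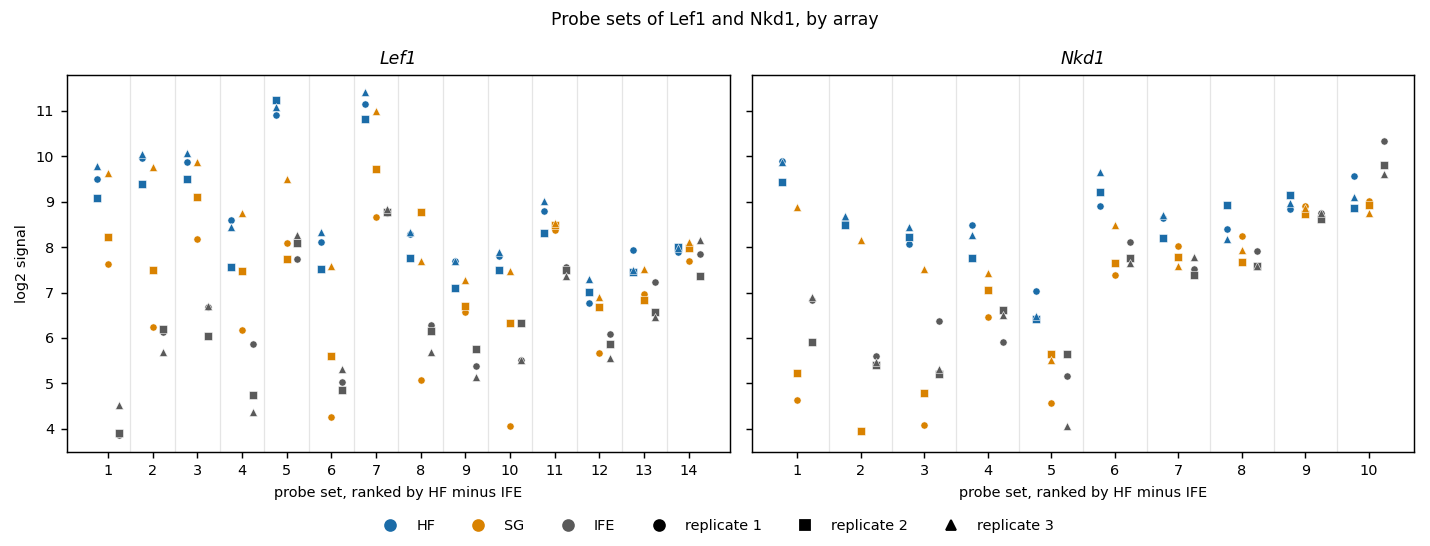
Log2 signal (vertical axis) of the 14 probe sets of Lef1 and the 10 of Nkd1 on each array, ranked from left to right by HF minus IFE; within each probe set HF stands left, SG in the middle and IFE right, and marker shapes give the replicate. The triangle of SG replicate 3 lies above both other SG arrays in most Lef1 probe sets and in the steepest Nkd1 probe sets. In one of these, which was not called in any comparison, it lies at 8.15 beside 3.95 and 3.95.

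Nkd2 had a log2 signal of 9.84, 8.57 and 10.0 on the HF arrays and 7.29, 7.66 and 7.91 on the SG arrays, against 7.59, 7.70 and 7.58 on the IFE arrays. The HF arrays lay above all others, and HF replicate 2, the array with the lowest hair shaft mean of its group, was the lowest of them. Nkd2 was 3.61-fold higher in HF than in IFE (1.85 ± 0.32, adjusted p = 0.00263, limma) and 3.60-fold higher in HF than in SG (1.85 ± 0.32, adjusted p = 0.00374, limma), and 1.99 higher on the log2 scale without SG replicate 3. Of its 12 probe sets, 12 were higher in HF than in IFE and 10 were higher in HF than in SG.

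Nkd1, Nkd2 and Tcf7 were called higher in HF in both comparisons, which share the HF arrays. Their RefSeq windows on GRCm38.p6, shown because these genes moved together, hold none of the 4 motifs, so no letters are in capitals. For Tcf7, which has 2 windows in the table, the one that lies farther upstream is given.
Nkd1, chr8:88527383-88527682, plus strand: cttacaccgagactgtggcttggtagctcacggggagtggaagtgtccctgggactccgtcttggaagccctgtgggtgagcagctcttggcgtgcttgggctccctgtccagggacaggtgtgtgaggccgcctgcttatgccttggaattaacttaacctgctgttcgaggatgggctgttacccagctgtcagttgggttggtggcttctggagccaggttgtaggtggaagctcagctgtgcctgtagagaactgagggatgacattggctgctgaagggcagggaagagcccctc
Nkd2, chr13:73847582-73847881, minus strand: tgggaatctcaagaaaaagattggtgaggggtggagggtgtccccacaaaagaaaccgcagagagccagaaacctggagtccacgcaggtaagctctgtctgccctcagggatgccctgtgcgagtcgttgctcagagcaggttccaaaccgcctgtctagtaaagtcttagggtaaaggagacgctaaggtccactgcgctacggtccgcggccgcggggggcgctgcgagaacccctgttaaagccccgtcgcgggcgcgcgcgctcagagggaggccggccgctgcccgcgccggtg
Tcf7, chr11:52282965-52283264, minus strand: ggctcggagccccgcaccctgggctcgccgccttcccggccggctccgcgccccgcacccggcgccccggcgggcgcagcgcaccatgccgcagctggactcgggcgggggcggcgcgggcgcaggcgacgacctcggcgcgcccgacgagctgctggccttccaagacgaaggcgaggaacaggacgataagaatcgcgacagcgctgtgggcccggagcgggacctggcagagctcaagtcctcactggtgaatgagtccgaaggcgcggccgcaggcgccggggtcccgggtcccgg
The absence of these letters from the windows says nothing about regulation elsewhere.

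Ctnnb1, which encodes beta-catenin, had a log2 signal of 11.20, 11.13 and 11.39 on the HF arrays and 9.76, 9.97 and 10.72 on the SG arrays, against 10.20, 10.32 and 10.62 on the IFE arrays. HF lay above both other compartments, which overlapped each other. Ctnnb1 was 2.14-fold higher in HF than in SG (1.10 ± 0.24, adjusted p = 0.0126, limma). HF minus IFE was 0.86 (adjusted p = 0.0351), under the fold threshold, which it passed with quantile normalization (1.14, adjusted p = 0.00298). Without any 1 of the HF or IFE arrays, adjusted p for HF minus IFE was above 0.05 (0.0513 to 0.132). With the brightest probe set HF minus IFE was 0.58 (adjusted p = 0.119). All 17 probe sets were higher in HF than in SG, by 0.67 to 1.34, with no overlap in 17 of 17. The call for HF minus SG ended without HF replicate 3 (adjusted p = 0.0667), SG replicate 1 (difference 0.90) or SG replicate 2 (adjusted p = 0.0577). That difference was 1.38 without SG replicate 3.

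Apc, Axin1 and Axin2, which build the destruction complex of beta-catenin, changed in no comparison. Their log2 signals ran from 7.49 to 8.52. Axin2, widely used as a readout of Wnt signalling, was 7.49, 7.68 and 7.76 on the HF arrays and 7.72, 7.80 and 7.69 on the SG arrays, against 7.99, 8.28 and 8.40 on the IFE arrays. It was lower on every HF and SG array than on any IFE array, at -0.58 for HF minus IFE (adjusted p = 0.0438) and -0.48 for SG minus IFE (adjusted p = 0.0606), both under the fold threshold. With the brightest probe set of Axin2 in place of the median, HF minus IFE was -1.07 (adjusted p = 0.0231), past the fold threshold. Axin2 missed the adjusted p threshold with quantile normalization (-0.45, adjusted p = 0.0826) and with median centring (-0.47, adjusted p = 0.0639). The same held without HF replicate 1 (adjusted p = 0.181), 2 (0.0891) or 3 (0.0901), and without IFE replicate 2 (0.139) or 3 (0.169). Without IFE replicate 1 HF minus IFE was -0.70 (adjusted p = 0.0173), and with array weights it was -0.65 (adjusted p = 0.0046). Axin1 was at -0.62 for SG minus IFE (adjusted p = 0.0221), and at -0.35 with quantile normalization (adjusted p = 0.133) and -0.38 with median centring (adjusted p = 0.0969).

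**Figure D4:**
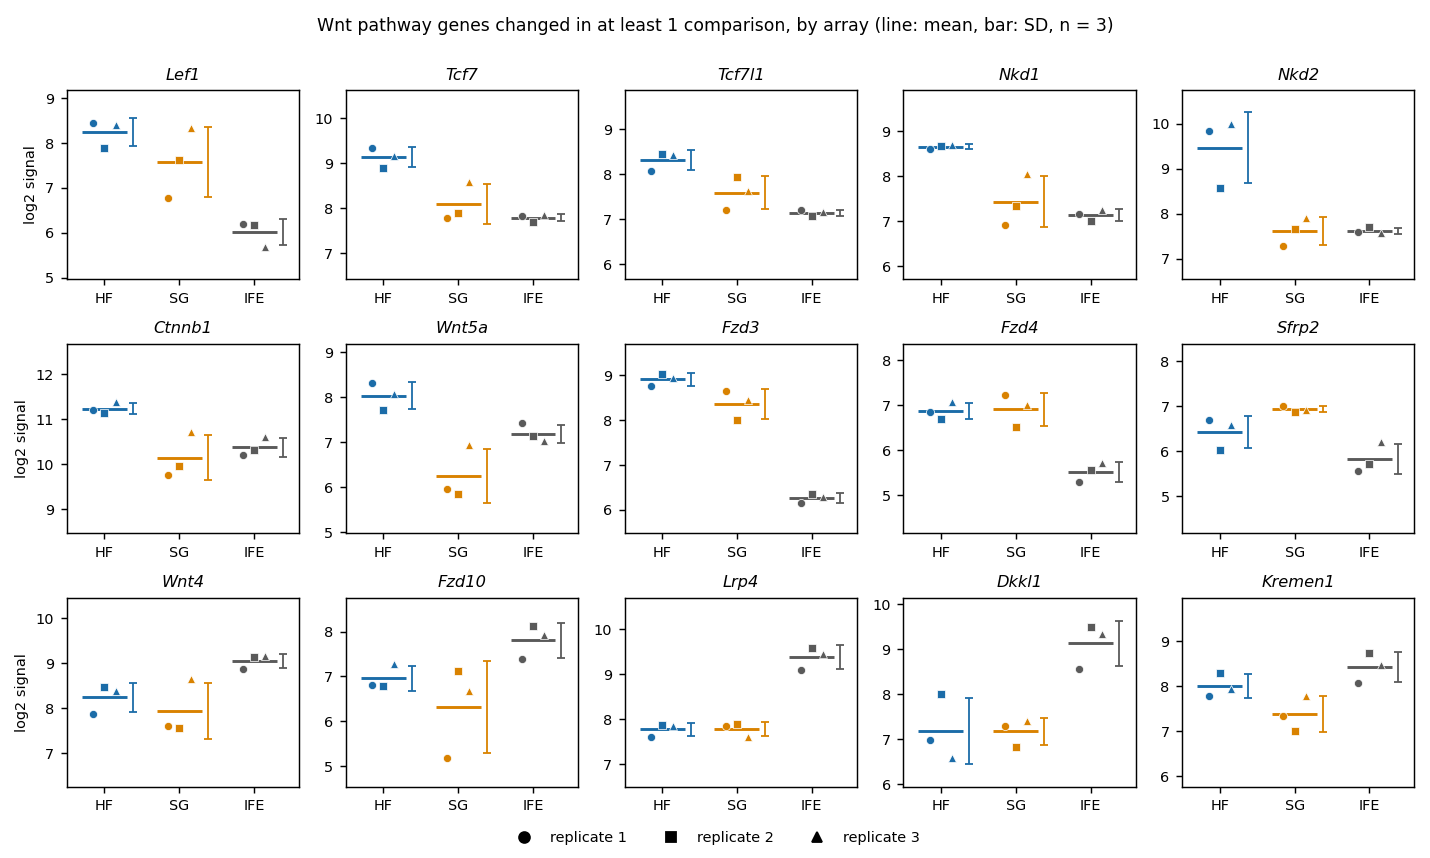
Log2 signal (vertical axis) of the 15 genes that changed in at least 1 comparison on each array, with HF, SG and IFE from left to right, a line at the mean and a bar of 1 SD to its right (n = 3). HF lies above both other compartments for Tcf7, Tcf7l1, Nkd1, Nkd2, Ctnnb1 and Wnt5a, and HF and SG lie together above IFE for Fzd3 and Fzd4 and below it for Lrp4 and Dkkl1.

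Of the 19 Wnt ligand genes, none changed between HF and IFE, beside 6.32% of all genes. Between HF and SG 1 changed (5.26%, beside 5.11% of all genes), and it was higher in HF. Between SG and IFE 1 changed (5.26%, beside 9.49%), and it was lower in SG. The share of 1 in 19 between HF and SG is about that of all genes and says nothing particular about ligands. Wnt5a, a ligand best known for signalling without beta-catenin, had a log2 signal of 8.32, 7.72 and 8.08 on the HF arrays and 5.97, 5.84 and 6.94 on the SG arrays, against 7.42, 7.13 and 7.03 on the IFE arrays. The 3 compartments did not overlap, with HF highest, IFE between and SG lowest. Wnt5a was 3.46-fold higher in HF than in SG (1.79 ± 0.28, adjusted p = 0.00208, limma), and 2.14 higher on the log2 scale without SG replicate 3. HF minus IFE was 0.85 (adjusted p = 0.0691), and all 11 probe sets were higher in HF than in SG. SG minus IFE was -0.95 (adjusted p = 0.029), under the fold threshold, and passed it without SG replicate 3 (-1.29, adjusted p = 0.0016) and with array weights (adjusted p = 0.00859). The mean of 9 dermal papilla genes, from the mesenchymal cells at the base of the follicle, was 6.23 to 6.36 on HF, 6.36 to 6.53 on SG and 6.09 to 6.47 on IFE. Of those 9, Vcan and Enpp2 were called higher and Hhip lower than in IFE, in both HF and SG. The mean of 6 adipocyte genes was 7.8 to 8.0 on HF, 7.0 to 7.5 on SG and 6.5 to 6.7 on IFE. That of 6 smooth muscle genes was 7.1 to 7.2 on HF, 6.7 to 6.9 on SG and 6.7 to 6.8 on IFE. Among the adipocyte and smooth muscle genes only Fabp4 and Acta2 were called, both higher in HF than in IFE and in SG. Fabp4 was also called higher in SG than in IFE. Its log2 signal was 11.88, 11.35 and 12.05 on the HF arrays and 6.02, 5.83 and 8.41 on the SG arrays, against 5.78, 4.60 and 3.49 on the IFE arrays. No other adipocyte gene was called in any comparison. The part of such cells in the Wnt5a result was not tested.

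Wnt4, a ligand of the epidermis, had a log2 signal of 7.87, 8.47 and 8.37 on the HF arrays and 7.60, 7.55 and 8.65 on the SG arrays, against 8.87, 9.13 and 9.15 on the IFE arrays. All IFE arrays lay above all others, and HF and SG overlapped. Wnt4 was 2.17-fold lower in SG than in IFE (-1.12 ± 0.28, adjusted p = 0.0144, limma), and -1.48 without SG replicate 3. That call ended without SG replicate 1 (adjusted p = 0.0545), SG replicate 2 (adjusted p = 0.063), IFE replicate 2 (adjusted p = 0.056) or IFE replicate 3 (adjusted p = 0.0529), and 3 of its 5 probe sets were lower in SG. HF minus IFE was -0.81 (adjusted p = 0.0845).

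The other 17 ligands were Wnt1, Wnt2, Wnt2b, Wnt3, Wnt3a, Wnt5b, Wnt6, Wnt7a, Wnt7b, Wnt8a, Wnt8b, Wnt9a, Wnt9b, Wnt10a, Wnt10b, Wnt11 and Wnt16. Their log2 signals lay between 4.70 and 8.29 on the 9 arrays. Wnt3, a ligand that signals through beta-catenin, had the smallest p among them for HF minus IFE, at -0.93 (adjusted p = 0.0433), under the fold threshold. It passed that threshold with its brightest probe set (-1.93, adjusted p = 0.000436), with array weights (-1.01, adjusted p = 0.00526), without IFE replicate 1 (-1.09, adjusted p = 0.0273), and without SG replicate 3 and HF replicate 2 together (-1.04, adjusted p = 0.0477). Adjusted p of Wnt3 was above 0.05 without HF replicate 1 (-0.75, 0.182), HF replicate 2 (0.0552) or HF replicate 3 (0.096). The same held without IFE replicate 2 (-0.75, 0.179) or IFE replicate 3 (0.11). Wnt3 was 5.88, 6.46 and 6.36 on the HF arrays and 6.70, 5.80 and 6.62 on the SG arrays, against 6.83, 7.52 and 7.13 on the IFE arrays, with no HF or SG array as high as any IFE array. Wnt10b, a ligand of the hair follicle placode, was at 0.54 for HF minus SG (adjusted p = 0.0982), with no overlap of the groups. By mean signal, 12 of the 19 ligands and 26 of the 57 genes lay below the median gene of the array, and no detection calls were used, so a low ligand may not have been measured above background.

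Of the 9 Frizzled genes 3 changed in at least 1 comparison, beside 13.9% of all genes, and the gene with the smallest p of the whole group was one of them. Fzd3, a receptor known for cell and hair orientation in the mouse, had a log2 signal of 8.75, 9.02 and 8.93 on the HF arrays and 8.64, 8.00 and 8.44 on the SG arrays, against 6.15, 6.37 and 6.28 on the IFE arrays. The 3 compartments did not overlap, and the step lay between SG and IFE. Fzd3 was 6.21-fold higher in HF than in IFE (2.64 ± 0.19, adjusted p = 1.07e-05, limma) and 4.26-fold higher in SG than in IFE (2.09 ± 0.19, adjusted p = 2.89e-05, limma), the last at 2.05 on the log2 scale without SG replicate 3. All 15 probe sets were higher in HF than in IFE, by 1.46 to 4.01, and all 15 were higher in SG than in IFE. HF minus SG was 0.55 with an interval of 0.13 to 0.96 (adjusted p = 0.105).

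Fzd4, a receptor for the Wnt ligands and for Norrin, had a log2 signal of 6.86, 6.70 and 7.06 on the HF arrays and 7.23, 6.51 and 7.00 on the SG arrays, against 5.29, 5.55 and 5.71 on the IFE arrays. HF and SG overlapped, and both lay above IFE. Fzd4 was 2.56-fold higher in HF than in IFE (1.35 ± 0.21, adjusted p = 0.00143, limma) and 2.63-fold higher in SG than in IFE (1.40 ± 0.21, adjusted p = 0.000797, limma), the last at 1.35 without SG replicate 3. With its brightest probe set the differences were 3.12 and 2.89. HF minus SG was -0.04, with an interval of -0.51 to 0.42. Its 8 probe sets agreed in direction for HF minus IFE, and 7 of 8 did for SG minus IFE. The comparisons of HF and of SG with IFE share the IFE arrays.

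Fzd10, a further Frizzled receptor, had a log2 signal of 6.81, 6.79 and 7.28 on the HF arrays and 5.18, 7.11 and 6.68 on the SG arrays, against 7.38, 8.12 and 7.92 on the IFE arrays. IFE lay above all other arrays, and SG replicate 1 lay far below the others. Fzd10 was 2.79-fold lower in SG than in IFE (-1.48 ± 0.40, adjusted p = 0.0211, limma), with 3 of 3 probe sets lower. The call ended without SG replicate 1 (-0.90), IFE replicate 2 (adjusted p = 0.0888) or IFE replicate 3 (adjusted p = 0.0681), and the difference was -1.66 without SG replicate 3.

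Fzd1, Fzd2, Fzd5, Fzd6, Fzd7 and Fzd8 did not count as changed in any comparison. Fzd7 was at 0.97 for HF minus IFE (adjusted p = 0.00404) and 0.75 for SG minus IFE (adjusted p = 0.0106), close to the fold threshold, with 8.49, 8.47 and 8.45 on the HF arrays and 7.90, 8.40 and 8.47 on the SG arrays, against 7.45, 7.55 and 7.51 on the IFE arrays. No HF or SG array was as low as any IFE array. With the mean of its probe sets Fzd7 passed the threshold in both, at 1.51 (adjusted p = 2.5e-05) and 1.17 (adjusted p = 8.01e-05), as it did with the brightest probe set, at 2.42 and 1.85. Fzd6, a polarity receptor of mouse skin whose loss disturbs the hair pattern, was at -0.99 for SG minus IFE (adjusted p = 0.00679), with no overlap of the groups. Fzd6 passed the threshold with the mean of its probe sets (-1.10), the brightest probe set (-1.56), array weights (-1.19), without SG replicate 1 (-1.12) and without IFE replicate 1 (-1.20), and was at -0.64 with quantile normalization.

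Of the co-receptors, Lrp4 stood on the other side. Lrp4 binds secreted Wnt inhibitors such as sclerostin and Sostdc1, and had a log2 signal of 7.60, 7.87 and 7.84 on the HF arrays and 7.84, 7.89 and 7.61 on the SG arrays, against 9.09, 9.59 and 9.46 on the IFE arrays. HF and SG overlapped, and every one of their arrays lay below IFE by more than 1 log2 unit. Lrp4 was 3.05-fold lower in HF than in IFE (-1.61 ± 0.18, adjusted p = 0.000174, limma) and 3.03-fold lower in SG than in IFE (-1.60 ± 0.18, adjusted p = 0.000137, limma), the last at -1.51 without SG replicate 3. With its brightest probe set both calls ended, at -0.79 and -0.38. HF minus SG was -0.01 with an interval of -0.41 to 0.39. Of its 41 probe sets, 40 were lower in HF and 41 were lower in SG than in IFE.

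Lrp5, Lrp6 and Ror2 did not count as changed in any comparison. Lrp6, the Wnt co-receptor, was at 0.87 for HF minus SG (adjusted p = 0.0129), under the fold threshold, with 9.41, 9.24 and 9.53 on the HF arrays and 8.85, 8.46 and 8.27 on the SG arrays, against 9.03, 9.14 and 8.84 on the IFE arrays. HF lay above both other compartments, and SG and IFE overlapped. Lrp6 passed the fold threshold without SG replicate 1 (1.03, adjusted p = 0.00984) and with the mean of its probe sets (1.01, adjusted p = 0.00157). Its adjusted p was above 0.05 without HF replicate 1 (0.0509), HF replicate 3 (0.0714) or SG replicate 2 (0.0527).

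Of the 9 genes grouped here as secreted inhibitors, by family and not by a measured effect, 2 changed in at least 1 comparison, beside 13.9% of all genes. Dkkl1, related in sequence to the Dickkopf inhibitor Dkk3, had a log2 signal of 6.97, 8.01 and 6.59 on the HF arrays and 7.30, 6.82 and 7.39 on the SG arrays, against 8.57, 9.50 and 9.34 on the IFE arrays. All IFE arrays lay above all others, and HF replicate 2 was the highest of the rest. Dkkl1 was 3.86-fold lower in HF than in IFE (-1.95 ± 0.35, adjusted p = 0.00319, limma) and 3.90-fold lower in SG than in IFE (-1.97 ± 0.35, adjusted p = 0.00195, limma), the last at -2.08 without SG replicate 3. All 5 probe sets were lower in HF and in SG than in IFE.

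Sfrp2, a secreted Frizzled-like protein that binds Wnt proteins, had a log2 signal of 6.71, 6.03 and 6.58 on the HF arrays and 7.00, 6.88 and 6.92 on the SG arrays, against 5.57, 5.71 and 6.20 on the IFE arrays. SG lay above both other compartments, which overlapped each other. Sfrp2 was 2.16-fold higher in SG than in IFE (1.11 ± 0.22, adjusted p = 0.00392, limma), with 3 of 4 probe sets higher, and the difference was 0.98 without IFE replicate 1, under the fold threshold, and 1.11 without SG replicate 3. HF minus SG was -0.50 (adjusted p = 0.199). Sfrp2 is also made by dermal fibroblasts, and the mean of 7 fibroblast markers was 7.24 to 7.31 on HF, 6.90 to 7.44 on SG and 6.78 to 7.00 on IFE. Of those 7, none changed between SG and IFE, and Dcn, a collagen-binding proteoglycan, was higher in HF than in IFE. Their part in the Sfrp2 result was not tested.

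Kremen1, which with Dkk1 removes Lrp6 from the cell surface, had a log2 signal of 7.77, 8.29 and 7.94 on the HF arrays and 7.34, 6.99 and 7.79 on the SG arrays, against 8.07, 8.73 and 8.46 on the IFE arrays. SG and IFE did not overlap, and HF overlapped both. Kremen1 was 2.06-fold lower in SG than in IFE (-1.04 ± 0.24, adjusted p = 0.00977, limma), with 12 of 13 probe sets lower. The call ended without SG replicate 2 (-0.85) or IFE replicate 2 (adjusted p = 0.0516), and the difference was -1.25 without SG replicate 3.

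Dkk1, Dkk2, Dkk3, Notum, Sfrp1, Sostdc1 and Wif1, the other genes grouped as secreted inhibitors, did not count as changed, and their log2 signals ran from 6.15 to 9.39. Their differences between HF and IFE lay between -0.13 and 0.42. Kremen2, the second Dkk receptor, ran from 6.92 to 7.21. The R-spondins Rspo1 and Rspo3, which raise Wnt signalling, and the ligase Rnf43, which removes Frizzled receptors, did not count as changed, nor did Porcn, the enzyme that adds the lipid to Wnt proteins. Rnf43 was at -0.66 for SG minus IFE (adjusted p = 0.0158), with 7.84, 8.02 and 7.69 on the HF arrays and 7.69, 7.70 and 7.81 on the SG arrays, against 8.58, 8.20 and 8.40 on the IFE arrays. All IFE arrays lay above all others by this median of its probe sets. With the brightest probe set of Rnf43, SG minus IFE had the opposite sign.

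For the genes not counted as changed, the 95% interval reflects only the spread between arrays of the median probe set signal. It does not cover the choice of probe set, the scaling or a signal near background. Axin2 for HF minus IFE had an interval of -0.95 to -0.21, yet its brightest probe set gave -1.07. Of the 42 genes changed in no comparison, 21 lay below the median gene by mean signal. The interval lay within 1 log2 unit on either side of 0 for 38 of 48 genes in HF minus IFE, 44 of 52 in HF minus SG and 39 of 48 in SG minus IFE. For the remaining genes the interval reached beyond 1 log2 unit on at least 1 side.

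SG replicate 3, the array that stood apart, was the SG array nearest to the HF mean for 21 of the 57 genes (36.8%), against 41.3% of all genes. Without it, 9 genes changed between HF and IFE (6.49% of all genes), 6 between HF and SG (6.85%) and 10 between SG and IFE (11.7%). Without SG replicate 3 and HF replicate 2 together, the counts were 11, 6 and 10, and the genes called with all arrays, 9, 5 and 9, were among them. The shares over all genes were not counted with both arrays left out.

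Other genes of the pathway were counted in the same way. Of 55 further genes for Wnt secretion, the receptor complex, the destruction complex, nuclear co-factors and planar polarity, 47 were measured. Between HF and IFE 1 was higher and 2 were lower (6.38%, beside 6.32% of all genes), with a median difference of -0.03. Between HF and SG 1 was higher and none lower (2.13%, beside 5.11%, median 0.27), and between SG and IFE 1 was higher and 3 were lower (8.51%, beside 9.49%, median -0.16). These shares were near or below those of all genes. Under quantile normalization and median centring the medians for HF minus IFE (0.08 and 0.07) and SG minus IFE (0.08 and 0.08) were above 0. Without SG replicate 3, 2 were higher in HF than in SG (4.78% of all genes), and 1 was higher (2.72%) and 5 were lower (8.98%) in SG than in IFE. Ctnnbip1, which keeps beta-catenin from its transcription factors, had a log2 signal of 8.74, 9.71 and 8.84 on the HF arrays and 8.65, 8.15 and 8.90 on the SG arrays, against 11.22, 11.54 and 11.27 on the IFE arrays. IFE lay above all others, with differences of -2.25 ± 0.27 for HF minus IFE (adjusted p = 0.000216, limma) and -2.78 ± 0.27 for SG minus IFE (adjusted p = 4.57e-05, limma). Daam1, a formin that links Dishevelled to actin, was lower than in IFE in HF (-1.26) and in SG (-2.13), and Csnk1d, a casein kinase, was lower in SG (-1.27). Lgr5, the R-spondin receptor of follicle stem cells and itself a target, was higher than in IFE by 2.23 in HF and by 1.80 in SG. Bcl9, a co-factor of beta-catenin, was higher in HF than in SG by 1.17.

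Of 20 textbook targets of beta-catenin, all measured and counting Lgr5 again, 3 were higher and 2 were lower in HF than in IFE (25%, beside 6.32% of all genes, median 0.20). Against SG, 2 were higher in HF and none lower (10%, beside 5.11%, median 0.11). Between SG and IFE 1 was higher and 1 lower in SG (10%, near the 9.49% of all genes, median 0.07). The HF minus SG median was -0.04 with quantile normalization and -0.03 with median centring. For HF minus IFE 4 were higher under both (3.42% and 3.6% of all genes), with Bambi added, and the medians were 0.34 and 0.31. There 0 and 1 were lower (2.45% and 2.73% of all genes). For SG minus IFE Lgr5 and Sox9 were higher under both (4.2% and 4.45% of all genes). None was lower there (3.28% and 3.94%), and the medians were 0.28 and 0.31. Without SG replicate 3, 4 were higher in HF than in SG (4.78% of all genes) and none lower (2.07%). With the same array left out, 1 was higher (2.72%) and 5 were lower (8.98%) in SG than in IFE (median -0.03). Msx2, a transcription factor of the hair matrix, had a log2 signal of 11.11, 10.81 and 11.46 on the HF arrays and 6.29, 7.64 and 9.93 on the SG arrays, against 8.11, 8.31 and 8.37 on the IFE arrays. HF lay above all others, and SG replicate 3 lay above the IFE arrays while SG replicates 1 and 2 lay below them. Msx2 was higher in HF than in IFE by 2.86 ± 0.65 (adjusted p = 0.0127, limma) and higher in HF than in SG by 3.17 ± 0.65 (adjusted p = 0.00901, limma). Without SG replicate 3 the difference from SG was 4.16. Sox9, a factor of follicle stem cells, was higher in HF than in IFE by 1.08, and Bambi, a BMP pseudoreceptor, was higher in HF than in SG by 1.44. Myc, a growth regulator, was lower than in IFE in both HF (-1.14) and SG (-1.02), and Tnfrsf19, a receptor of the TNF family, was lower in HF (-1.09). With quantile normalization Myc (-0.87 and -0.60) and Tnfrsf19 (-0.91) fell short of the fold threshold, and with median centring Myc for SG minus IFE (-0.78) and Tnfrsf19 (-0.98) did.

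The scaling of the arrays moved some calls. Quantile normalization or median centring shifted the median difference of all genes for SG minus IFE to 0.16 and 0.18, beside -0.06 as deposited. For HF minus SG it was -0.12 under both, beside 0.02, and for HF minus IFE it was 0.01 and 0.03, beside -0.07. Under both, 4 genes were higher and 3 lower in SG than in IFE, in place of 4 and 5, and Wnt4 (-0.78 and -0.88) and Kremen1 (-0.77 and -0.80) fell short of the fold threshold. For HF minus SG both left 3 genes higher, since Ctnnb1 (0.97 and 0.96) and Tcf7 (0.92 and 0.91) fell short. For HF minus IFE the counts were 9 higher and 2 lower with quantile normalization and 8 and 2 with median centring, with Fzd7 added under both (1.08 and 1.07). Of the 23 calls of a gene in a comparison, 19 held under both scalings and 16 when any single array was left out. With the brightest probe set of each gene in place of the median, 6 of the 9 calls for HF minus IFE held, 0 of the 5 for HF minus SG and 3 of the 9 for SG minus IFE. The calls that ended included Tcf7 (0.61) for HF minus IFE, Ctnnb1 (0.67), Nkd1 (0.27), Tcf7 (0.49) and Wnt5a (0.77) for HF minus SG, and Fzd10 (-0.64), Kremen1 (-0.85) and Lef1 (1.00, adjusted p = 0.113) for SG minus IFE. With the mean of the probe sets, Fzd4 for HF minus IFE was just short of the fold threshold, as were Kremen1 (-0.77) and Sfrp2 (0.93) for SG minus IFE, where Wnt4 was at -0.54 (adjusted p = 0.0524). Array weights put Sfrp2 at 0.97. With a block for the letter that ends each array's name (the letter block), Wnt5a alone held for HF minus SG, with adjusted p of 0.101 for Ctnnb1, 0.102 for Nkd1, 0.0541 for Nkd2 and 0.18 for Tcf7. The letter block also ended Dkkl1 for HF minus IFE (adjusted p = 0.09), and Fzd10 (0.125), Kremen1 (0.0817) and Wnt4 (0.108) for SG minus IFE. Letters a, b and e each stand on a single array, HF replicate 1, SG replicate 1 and IFE replicate 3. The letter block therefore sets those arrays aside and has less power, so a call lost under it cannot be laid to the letter.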

How the data were processed

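Tail epidermis of mice was measured on 9 exon arrays, 3 per compartment. The authors deposited linear intensity values, between 2.501 and 30814.8, for 154736 probe sets. The submitters' processing notes name RMA, Affymetrix Power Tools and the build mm9, without versions or roles. How the probe sets were filtered is not given in the sources used here. No detection calls were used, so how far a gene stood above background is unknown, and low signals may understate differences.

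The log2 of each intensity was taken, with no pseudocount or further normalization. The platform annotation gives 1 symbol to 146964 probe sets, several to 1060 and none to 6712, and only the first kind was named. Older symbols were updated through a RefSeq table on GRCm38.p6 for 1755 symbols, and 14473 of 14508 genes were found in it. A gene's value is the median of its probe sets (median of 8 per gene). Promoter sequences are RefSeq's, and their coordinates are not those of mm9.

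A linear model with a mean per compartment and eBayes (limma 3.58.1, R 4.3.3) used all 9 arrays, for genes and again for all probe sets. Benjamini-Hochberg adjustment ran over all genes or all probe sets. Figures were drawn with matplotlib 3.10.9. Groups follow the sample titles. The genes and lists were chosen with earlier results of these data known, so no test over the list was made. All genes of the group are accounted for. Values on every array are given for those that changed, and values for up to 4 others per comparison with the smallest p.

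The code was tested on simulated data with known changes. Alternatives were the replicate number or the array name's last letter as a block, other scalings, gene values, eBayes settings and thresholds, leaving out dim genes, a fit of only the compartments compared, and leaving out arrays. Thresholds were varied for the counts of changed genes only. For the lists of further pathway genes and targets, other scalings and leaving out SG replicate 3 were added after seeing the data.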

Additional observations from a re-analysis of the deposited data

How the results depend on the processing

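Of the 23 calls of a gene in a comparison, 5 held under all 20 alternatives that kept the thresholds of the main fit. They were Fzd3, Nkd2 and Tcf7l1 for HF minus IFE, and Fzd3 and Dkkl1 for SG minus IFE. Other fold thresholds were applied to the counts only, and Tcf7l1 (1.17) would not pass one of 1.5. For 7 calls on dimmer genes only 19 could be run, since leaving out the dimmer 50% of genes removed the gene. Of those, Lef1 for HF minus IFE and Fzd4 for SG minus IFE held under all 19, and Lef1 for SG minus IFE and Wnt5a for HF minus SG held under all but the brightest probe set. Among the calls with 20 alternatives, 4 ended with the brightest probe set and under no other: Nkd1, Tcf7 and Lrp4 for HF minus IFE, and Lrp4 for SG minus IFE. For HF minus IFE the count of changed genes was 14 with no minimum log2 difference and 6 at a log2 difference of at least 1.5, in place of 9. It was 9 to 10 when 1 array was left out. For HF minus SG it was 1 with the letter block, 3 with quantile normalization, 3 with median centring and 2 at a log2 difference of at least 1.5, in place of 5, and 3 to 6 when 1 array was left out. For SG minus IFE it was 5 with the dimmer 50% of genes left out, 16 with no minimum log2 difference and 4 at a log2 difference of at least 1.5, in place of 9, and 6 to 10 when 1 array was left out. The shares over all genes were not counted at these other thresholds, with the letter block or with dimmer genes left out. When 1 array was left out, they were counted for SG replicate 3 only. The number of Lef1 and Nkd1 probe sets called for HF minus IFE, 15 in all, was 7 to 18 when 1 array was left out, with 9 without HF replicate 1, IFE replicate 2 or IFE replicate 3 and 7 without HF replicate 3. The brightest probe set turned the sign for 6 genes: Nkd1 in HF minus IFE (-0.73), Nkd2 in HF minus SG (-0.67), and Rnf43 (1.20), Sfrp2 (-0.10), Tcf7l2 (-0.046) and Wnt4 (0.035) in SG minus IFE. The cause was not tested.

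The replicate numbers are shared by the compartments, but nothing in the labels says that a number marks a pairing, and deviations of same-numbered arrays correlated at -0.02 to 0.23 over 9 pairs. With the replicate number as a block, the counts were 9 for HF minus IFE, 5 for HF minus SG, 9 for SG minus IFE and 15 for the probe sets of Lef1 and Nkd1. The shares over all genes were not counted with this block, nor those over all probe sets under any alternative. Low signal limits what the dimmer ligands can show.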
